A study of Salmo salar with 31 samples.

Results

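Skin of Atlantic salmon kept for 1 month in seawater in a semi-closed containment system (S-CCS 1M, 6 fish) was compared with skin of smolts still in freshwater (7 fish). The fish were chosen by their sample titles, and they make up 13 of the 31 arrays of the series. The other 18 arrays hold net-pen 1M, S-CCS 4M and net-pen 4M fish, 6 of each, from an open net-pen at the same time and from both systems after 4 months. RNA of each fish was labelled with Cy3 and hybridized to its own oligonucleotide array. S-CCS 1M fish had lived in a floating raceway whose water is pumped up from depth and exchanged continuously, and all of them came from a single unit. The smolts had been sampled in freshwater shortly before the same stock was moved to sea by well boat. The paper names commercial dry diets for freshwater and for seawater, but not the feed of each group. S-CCS 1M fish thus stand for a single rearing unit, and the number of units behind the smolts is not given. Time at sea, age and rearing system differ together, feed may differ with them, and p-values measure the spread between fish, not between units.

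Fish skin is a living epithelium covered by mucus, over a dermis with scales, collagen and blood vessels. It forms the barrier between the body and water. Smolts prepare for seawater while still in freshwater, and the move from a dilute to a salty medium reverses the direction in which water and ions tend to cross that barrier. Mucous cells, keratinocytes, fibroblasts, scale-forming cells, pigment cells and immune cells all contribute RNA to a skin piece. In such bulk tissue a smaller number of cells of a type and less RNA per cell cannot be told apart. Probe IDs of the array matched 0 of the 65341 genes in the reference table and carry no gene names, so features are given by probe ID, and markers of skin and its cell types were not checked.

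A total of 14841 features were read on every array, and 14172 were tested after a filter on dim spots. Signals are intensities brought to equal mean over arrays and corrected by lowess, and log2-ER is the difference of mean log2 expression ratios, S-CCS 1M minus smolt. Spots well above background made up 91.2% to 97.1% of features in S-CCS 1M fish and 86.6% to 92.4% in smolts (exact permutation test over fish, two-sided, p = 0.0653, adjusted p = 0.087 over 4 measures). The ratio of spot to background signal was 6.30 at the lowest, 8.19 at the median and 8.88 at the highest in S-CCS 1M fish, and 4.44, 6.24 and 7.00 in smolts (p = 0.00932, adjusted p = 0.0373 by the same exact test). Mean signal before scaling was 1617 to 2159 in S-CCS 1M fish and 936 to 1831 in smolts (exact p = 0.0466, adjusted p = 0.087). Without S-CCS 1M fish 2, described below, spots well above background made up 91.2% to 93.4% in S-CCS 1M fish (exact p = 0.141, unadjusted). Leaving it out gave an unadjusted exact p of 0.0202 for the ratio of spot to background signal and of 0.0253 for mean signal. Arrays of S-CCS 1M fish were thus brighter on average than those of smolts, with overlapping ranges, and the part of this difference in the results was not tested.

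The array of S-CCS 1M fish 2 stood apart from the other 12 in its dim spots. In the dimmest 25% of features its median log2 ratio before lowess was 0.94, against -0.42 to 0.04 in the other S-CCS 1M fish and -0.49 to -0.04 in smolts. The 5th percentile of its signal was 14.5, against 3.34 to 5.12 in the other S-CCS 1M fish and 1.78 to 4.41 in smolts. After lowess the same features had a median of 0.03 in fish 2, and all 13 arrays lay between -0.03 and 0.03. Lowess thus levelled the median of the dim spots but not each dim feature by itself, and the main counts and values are given with and without this fish.

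**Figure D1:**
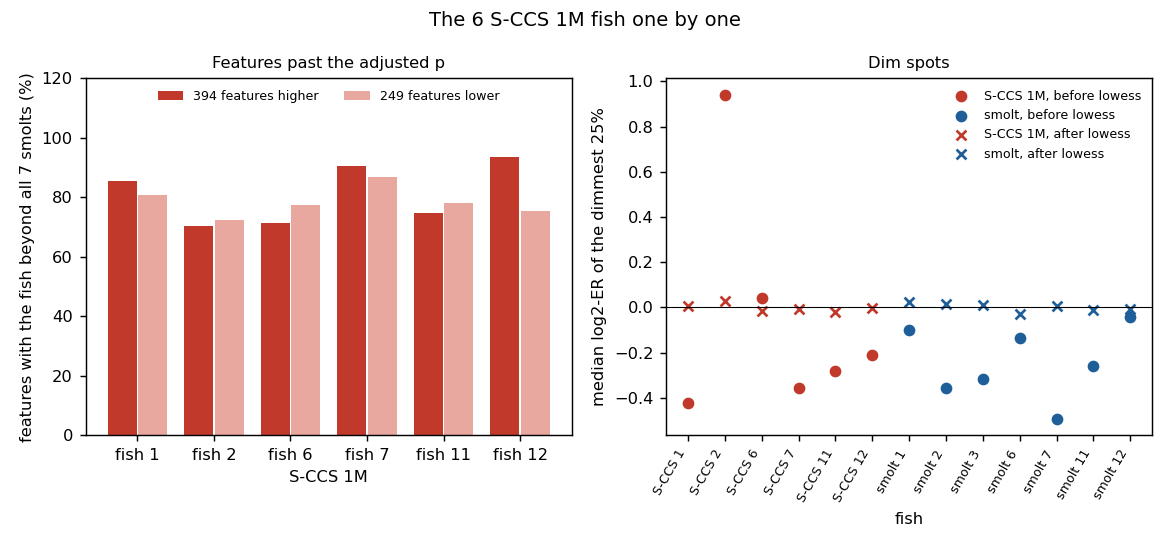
The left panel plots, for each S-CCS 1M fish, the percent of features in which it lay beyond all 7 smolts, among the 394 features higher and the 249 features lower at an adjusted p under 0.05. The right panel plots the median log2-ER of the dimmest 25% of features in each of the 13 fish, before lowess (circles) and after it (crosses), and S-CCS fish 2 is the circle at 0.94.

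In total, 724 features (5.11% of those tested) differed between S-CCS 1M fish and smolts at an unadjusted p under 0.05 in limma and a log2-ER beyond 0.8 (1.74-fold) in either direction. Of these, 355 (2.5%) were higher in S-CCS 1M skin and 369 (2.6%) lower. After Benjamini-Hochberg adjustment over all features in limma, 643 (4.54%) had an adjusted p under 0.05, with 394 (2.78%) that rose and 249 (1.76%) that fell. Both the criteria and the adjusted p were met by 377 features (2.66%), of which 229 rose and 148 fell. The remaining 266 with an adjusted p under 0.05 differed by 0.8 or less, and 347 features met the criteria alone. In 361 features (2.55%) no S-CCS 1M fish overlapped any smolt, with 207 (1.46%) higher and 154 (1.09%) lower.

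Medians were alike in the 2 directions, but in the far tail more features fell than rose. Among those past the adjusted p, the median log2-ER was 0.90 for features that rose and -0.90 for those that fell, against a median size of 0.20 over all features tested. Beyond 2 on the log2 scale there were 29 that rose and 39 that fell, and beyond 3 there were 5 and 9. No feature rose by more than 4, while 4 fell by more than 4, of which Ssa#S35557995 and Ssa#S35581849 moved together from fish to fish. The others, Ssa#CB509156 and Ssa#CK888312, ranked the smolts nearly alike, though not the S-CCS 1M fish. Smolt fish 1, 11 and 12 were highest and smolt fish 3 lowest in both. The 4 features may thus not count as separate observations. The counts given here include fish 2. Without it, Ssa#EG808094 rose by 4.19 (limma adjusted p = 0.00036), and Ssa#CK892092, which fell by 5.26, passed as well (adjusted p = 0.0369). Over all features the SD between fish had a median of 0.301 in S-CCS 1M fish and 0.331 in smolts. Among features that fell it was 0.335 in S-CCS 1M fish and 0.404 in smolts, and among those that rose 0.341 and 0.374.

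**Figure D2:**
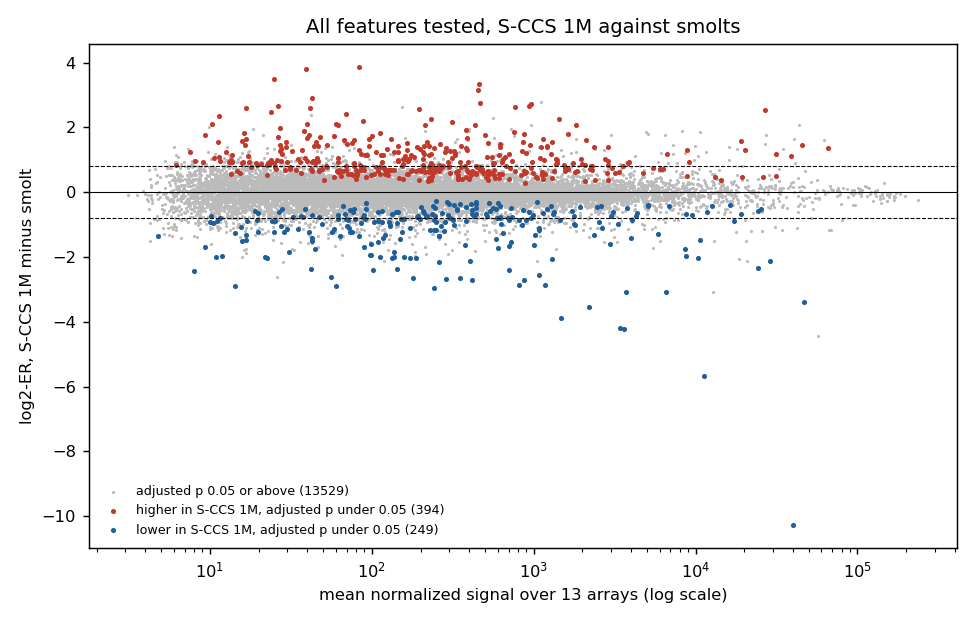
Each point is 1 of the 14172 features, with its mean normalized signal over the 13 arrays on a log axis and its log2-ER, S-CCS 1M minus smolt, on the vertical axis. Red points are the 394 features that rose and blue points the 249 that fell at an adjusted p under 0.05, dashed lines mark a log2-ER of 0.8 in each direction, and the lone point near the bottom is Ssa#CB509156 at -10.28.

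Without fish 2, 863 features (6.09%) met the criteria, 421 higher and 442 lower, and 641 of them were among the 724 counted with that fish. The 83 that met them only with fish 2 comprised 38 higher and 45 lower features, and the 222 that met them only without it comprised 104 higher and 118 lower. All 724 had the same sign in both fits. The adjusted p was under 0.05 in limma for 650 features (4.59%) without fish 2, of which 533 were shared with the fit of all arrays. Features whose groups did not overlap numbered 581 (4.1%) without fish 2, and leaving out a fish can only add to that number.

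The balance of directions moved when lowess was dropped with fish 2 included, and when the background correction was changed. It hardly moved with scaling: 49.0% were higher after 75th percentile scaling with lowess. Quantile normalization, in place of scaling and lowess, gave 49.8% higher. Without lowess, 563 features met the criteria as higher in S-CCS 1M fish and 240 as lower, so 70.1% were higher, against 49.0% with it. Leaving out fish 2 in addition brought this share to 52.1%. Scaling to the 75th percentile without lowess gave 66.5% higher, and 48.9% without fish 2. After normexp background correction with an offset, 202 features met the criteria and 28.2% of them were higher. Leaving out fish 2 as well gave 190 features, of which 33.2% were higher.

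Dim features met the fold criterion more often than bright ones. In the quartile of features with mean signals of 3.13 to 48.4, 7.39% of features met both criteria, and the share was 5.08%, 4.06% and 3.90% in the successively brighter quartiles. At an adjusted p under 0.05 the shares were 3.67%, 4.23%, 5.39% and 4.85%. The SD between fish moved with brightness, with medians in the dimmest quartile of 0.505 in S-CCS 1M fish and 0.495 in smolts, and in the brightest quartile of 0.218 in S-CCS 1M fish and 0.249 in smolts.

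Ssa#CB509156 had the lowest log2-ER of all features tested. Its normalized signal was 13.1 at the lowest, 27.2 at the median and 495 at the highest in S-CCS 1M fish, and 17106, 64586 and 144160 in smolts. The groups were far apart, and the brightest S-CCS 1M fish, fish 2 at 495 and fish 7 at 246, were still far below the dimmest smolt. The feature fell by 10.28 on the log2 scale (SE 1.33, limma adjusted p = 1.25e-05), and its log2-ER was -10.94 without fish 2. Among the S-CCS 1M fish the SD was 2.25 on the log2 scale, against 1.02 in smolts. In net-pen 1M fish this feature had a median signal of 137, but its highest value there was 132920, within the range of smolts.

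A pair of other bright features behaved differently from fish to fish in S-CCS 1M. Both were chosen after their values were seen, as the features beyond 4 on the log2 scale that the naming rule left out. Ssa#CK892092 had a signal of 22.4 in fish 1 and 33.9 in fish 6, and of 19295, 26304, 55008 and 59611 in fish 7, 12, 11 and 2, while the smolts lay between 18912 and 150560. Hence 4 of the 6 S-CCS 1M fish were inside the range of smolts and the other 2, though still well above background, were far below it. Its log2-ER of -4.42 met the criteria but had a limma adjusted p of 0.0808, while without fish 2 it fell by 5.26 with an adjusted p of 0.0369. Ssa#CK888312 was split in the same fish, with 5.58 in fish 1 and 2.75 in fish 6, both not well above background, and 994 to 5106 in the other S-CCS 1M fish, against 2742 to 35049 in smolts. It fell by 5.68 on the log2 scale (SE 1.44, limma adjusted p = 0.0176), a mean over fish of both kinds, and its log2-ER was -6.46 without fish 2 (adjusted p = 0.0081). Among smolts, both features and Ssa#CB509156 were highest in smolt fish 1, 11 and 12 and lowest in smolt fish 3.

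Ssa#S35557995 and Ssa#S35581849 fell by nearly the same amount. Ssa#S35557995 had 93.4, 309 and 746 as its lowest, median and highest signal in S-CCS 1M fish, and 1763, 5454 and 16713 in smolts. Ssa#S35581849 had 82.2, 322 and 624 in S-CCS 1M fish, and 1522, 5401 and 15794 in smolts. Every S-CCS 1M fish was below every smolt in both, as the naming rule required. Fish 7 was the lowest S-CCS 1M fish and smolt fish 12 the lowest smolt each time. The log2-ER was -4.22 (SE 0.60, limma adjusted p = 3.99e-05) for Ssa#S35557995 and -4.18 (SE 0.60, adjusted p = 5.42e-05) for Ssa#S35581849. After the group means were taken out, the 2 features correlated at 0.992 over the 13 fish, so they do not count as separate observations.

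Ssa#CK895788 had the smallest p among features that fell. Its signals were 133, 154 and 264 in S-CCS 1M fish and 1752, 2589 and 3849 in smolts, and both groups were tight, with SDs of 0.35 and 0.38 on the log2 scale. It was 14.9-fold lower in S-CCS 1M skin (log2-ER -3.90, SE 0.33, limma adjusted p = 1.21e-08), and the value without fish 2 was -3.83. Ssa#S35568346 followed, with signals of 121, 166 and 273 in S-CCS 1M fish and 688, 1437 and 1888 in smolts. Its log2-ER was -2.87 (SE 0.29, limma adjusted p = 2.25e-07), and no S-CCS 1M fish came near the lowest smolt.

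Some features that fell were among the brightest on the array. Ssa#S35534614 had 2453, 6302 and 18138 in S-CCS 1M fish and 37170, 83457 and 126250 in smolts, and fell by 3.38 on the log2 scale (SE 0.54, limma adjusted p = 0.000214). Without fish 2, which had the highest S-CCS 1M signal, it fell by 3.66. Ssa#S35547501 had 4593, 8205 and 10443 in S-CCS 1M fish, and 26431, 40447 and 46912 in smolts. Ssa#S35547500 had 5932, 11517 and 14505 in S-CCS 1M fish, and 31242, 46556 and 52919 in smolts. The ranges were disjoint in all 3, yet every S-CCS 1M fish still had a signal of 2453 or more. Log2-ER was -2.34 (SE 0.24) for Ssa#S35547501 and -2.13 (SE 0.28) for Ssa#S35547500, whose fish-to-fish deviations correlated at 0.986 over 13 fish.

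The other 6 named features that fell, Ssa#S35551910, Ssa#CK890937, Ssa#S35581696, Ssa#CK879455, Ssa#S35550174 and Ssa#S31987930, had log2-ER between -2.91 and -2.62. Their median signals ran between 14.6 and 223 in S-CCS 1M fish and between 94.5 and 1488 in smolts. Ssa#S31987930 was the dimmest of them in smolts, with 9.16, 14.6 and 18.4 in S-CCS 1M fish and 48.1, 94.5 and 147 in smolts. Ssa#S35551910 was well above background in 5 of 6 S-CCS 1M fish, and fish 1, at 2.18, lay far under the other 5 S-CCS 1M fish. In none of the 6 did an S-CCS 1M fish reach the lowest smolt, as the rule that named them required. Some moved with other named features within groups over the 13 fish, so they do not all count as separate observations. Ssa#S35581696 correlated with Ssa#S35581849 at 0.89, and Ssa#CK890937 with Ssa#S35581849 at 0.86. The correlation was 0.85 for Ssa#CK890937 with Ssa#S35550174 and 0.83 for Ssa#CK879455 with Ssa#S35534614.

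**Figure D3:**
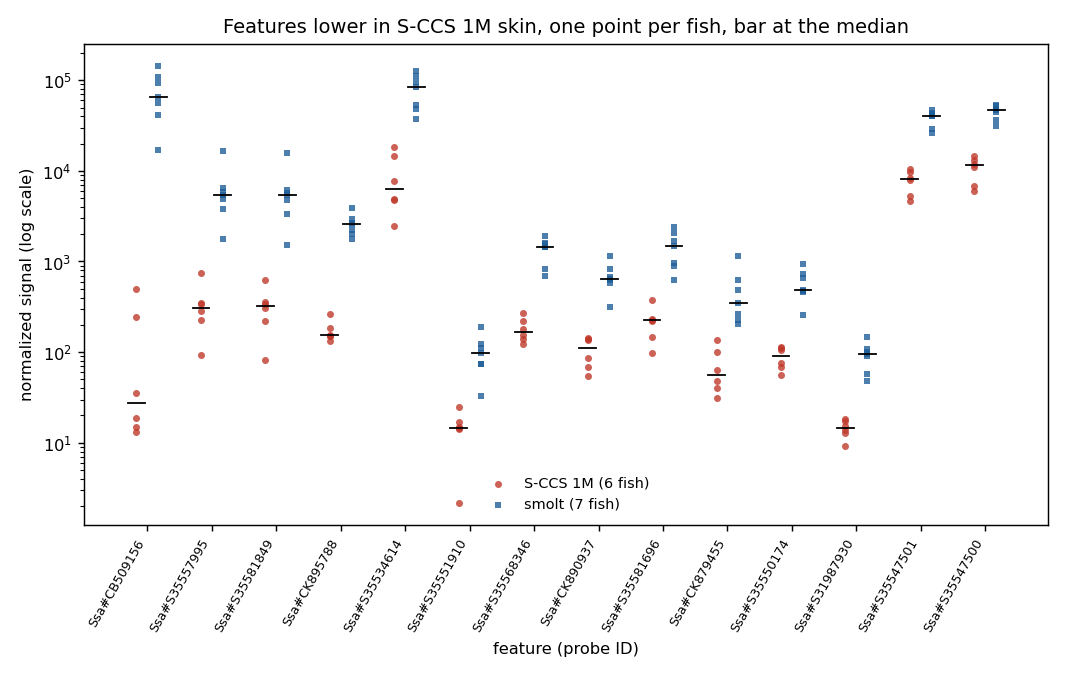
Normalized signal (log axis) of the 14 named features that fell, with a red circle for each of the 6 S-CCS 1M fish to the left of a blue square for each of the 7 smolts and a bar at each median. The red and blue points do not overlap in any of the 14, and the widest gap is that of Ssa#CB509156, 495 and below in S-CCS 1M fish against 17106 and above in smolts.

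Among features that rose, Ssa#GRASP223648013 had the highest log2-ER under the naming rule. Its signal was 9.65, 72.4 and 168 in S-CCS 1M fish, and 2.47, 5.12 and 5.83 in smolts. It was well above background in 6 of 6 S-CCS 1M fish and 0 of 7 smolts, so only a bound can be given, taken from the mean of the S-CCS 1M fish against, in each smolt, the higher of its own signal and the lowest signal well above background there. It was at least 7.14-fold higher in S-CCS 1M skin (limma adjusted p = 0.0011). Another 3 features, chosen after their values were seen, had the same pattern of detection, which made 4 of the 14172 tested, and 0 features had the reverse pattern. Fish 2 had 97.1% of features well above background, against 86.6% to 92.4% in smolts. The reverse pattern was thus hard to reach, and nothing is read from these counts. Ssa#GRASP221219553 was at least 3.78-fold higher, Ssa#S31984402 at least 1.75-fold and Ssa#TC109637 at least 1.72-fold. In Ssa#GRASP221219553 the groups overlapped, with S-CCS 1M fish 2 at 7.73 below smolt fish 3 at 8.17. All 4 features kept a limma adjusted p under 0.05 without fish 2.

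Ssa#S18835747, Ssa#BG935071 and Ssa#AM049745 rose together, each with the same wide spread among fish. Ssa#S18835747 had 295, 535 and 2980 in S-CCS 1M fish and 22.9, 58.5 and 218 in smolts, and rose by 3.33 (SE 0.66, limma adjusted p = 0.00236). Ssa#BG935071 had 255, 593 and 2935 in S-CCS 1M fish and 62.4, 82.3 and 235 in smolts, and rose by 2.75 (SE 0.60, adjusted p = 0.00531). Ssa#AM049745 had 112, 220 and 1037 in S-CCS 1M fish and 28.8, 42.6 and 95.7 in smolts, and rose by 2.58 (SE 0.50, adjusted p = 0.00177). In all 3 the highest S-CCS 1M fish was fish 12 and the highest smolt was smolt fish 12, and still no smolt reached the lowest S-CCS 1M fish. Their deviations within groups correlated at 0.946 (Ssa#BG935071 with Ssa#S18835747), 0.932 (Ssa#AM049745 with Ssa#BG935071) and 0.896 (Ssa#AM049745 with Ssa#S18835747) over 13 fish.

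Ssa#S18892263 rose by 3.15 (SE 0.46, limma adjusted p = 6.67e-05). Its signals were 466, 897 and 1299 in S-CCS 1M fish and 41.6, 78.5 and 252 in smolts, so the groups were disjoint. Ssa#S31997300 had 30.3, 90.1 and 101 in S-CCS 1M fish, and 5.58, 9.84 and 20.2 in smolts, where 5 of 7 were well above background. It rose by 2.90 (SE 0.49, adjusted p = 0.000457), with fish 11 well below the other 5 S-CCS 1M fish. Ssa#EG808094, named after its values were seen because it exceeded 3 on the log2 scale, rose by 3.87 (SE 0.67, adjusted p = 0.000502). It had 44.1 to 344 in S-CCS 1M fish and 3.21 to 48.4 in smolts. Only 3 of 7 smolts were well above background, so its log2-ER rests in part on dim spots. Only fish 2, at 44.1, lay inside the range of smolts, and without it the groups were disjoint (next lowest fish 94.9) and the log2-ER was 4.19.

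Features with small errors stood out by p rather than by size. Ssa#GRASP223648733 had signals of 25174, 29121 and 36056 in S-CCS 1M fish, and 7894, 10089 and 11729 in smolts. It rose by 1.60 (SE 0.13, limma adjusted p = 1.21e-08), a 3.03-fold difference, with an SD of 0.21 on the log2 scale in S-CCS 1M fish and 0.22 in smolts. Ssa#GRASP209154235 had 1165, 1855 and 2357 in S-CCS 1M fish and 173, 267 and 324 in smolts, and rose by 2.74 (SE 0.25, adjusted p = 6.67e-08). Ssa#GRASP209736833 had 2569, 3229 and 3466 in S-CCS 1M fish and 554, 774 and 925 in smolts, and rose by 2.07 (SE 0.20, adjusted p = 1.14e-07). In these 3 features the lowest S-CCS 1M fish was more than 2-fold above the highest smolt.

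The brightest features that rose and also met the fold criterion were Ssa#EG784262, Ssa#TC76324 and Ssa#S50370027. Ssa#EG784262 had 61211, 101040 and 115200 in S-CCS 1M fish, and 14851, 45748 and 62023 in smolts, and its log2-ER was 1.37 (SE 0.26, limma adjusted p = 0.00162). Ssa#TC76324 had 40872, 70374 and 84698 in S-CCS 1M fish, and 9498, 30710 and 40819 in smolts, with a log2-ER of 1.44 (SE 0.31, adjusted p = 0.00484). Ssa#S50370027 had a log2-ER of 1.13 (SE 0.30, adjusted p = 0.0228), and lost its adjusted p under 0.05 without S-CCS 1M fish 11, without smolt fish 1 or without smolt fish 3, and in a fit of only the 13 arrays. With normexp all 3 features lost it. Ranges overlapped for Ssa#EG784262 and Ssa#S50370027 and were disjoint by a narrow margin for Ssa#TC76324. The 3 followed each other from fish to fish, with correlations within groups of 0.974 to 0.996 over 13 fish, and smolt fish 1 and 3 were the lowest in each.

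The other 5 named features that rose were Ssa#S18866337, Ssa#S31963778, Ssa#S35567221, Omy#S23931884 and Ssa#S32000442, with log2-ER between 2.19 and 2.60. Ssa#S31963778 was by far the brightest of them, at 30481, 46516 and 65105 in S-CCS 1M fish and 3596, 6928 and 25833 in smolts (log2-ER 2.54, SE 0.33, limma adjusted p = 1.18e-05). Ssa#S18866337 was the dimmest, at 9.18, 23.5 and 68.7 in S-CCS 1M fish and 2.45, 2.94 and 8.64 in smolts, of which 2 of 7 were well above background. Groups were disjoint in all 5 features, as the rule that named them required. With normexp, Ssa#S18866337, Ssa#GRASP223648013, Ssa#BG935071, Ssa#S18835747 and, among features that fell, Ssa#S35551910 also lost an adjusted p under 0.05.

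**Figure D4:**
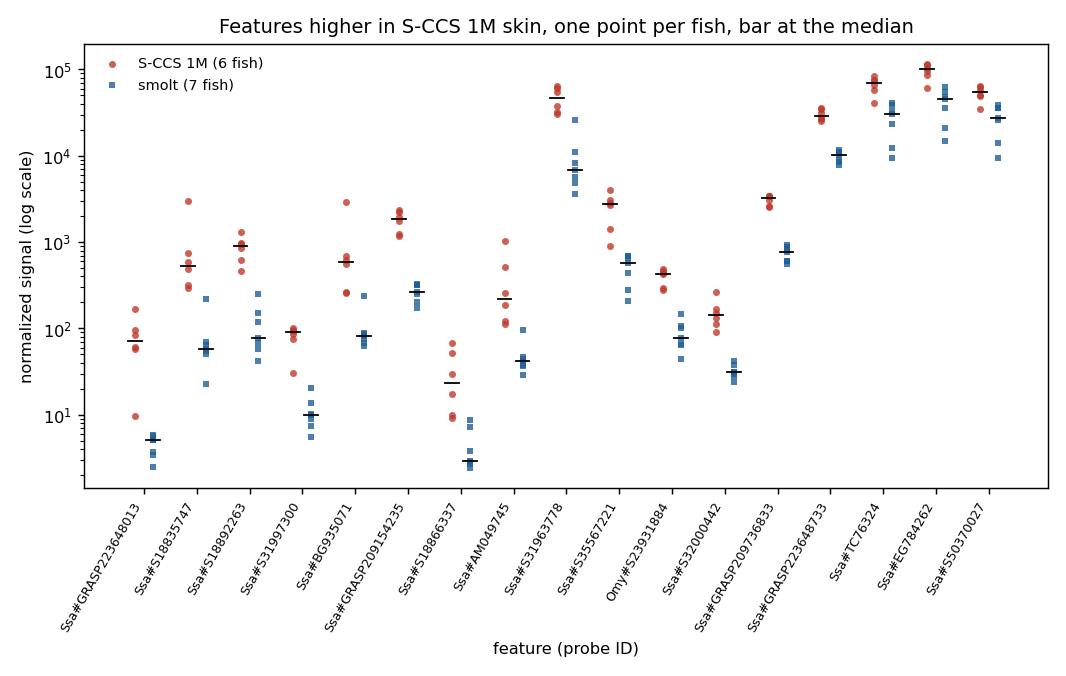
Normalized signal (log axis) of the 17 named features that rose, with a red circle for each of the 6 S-CCS 1M fish to the left of a blue square for each of the 7 smolts and a bar at each median. Points of the groups overlap only in Ssa#EG784262 and Ssa#S50370027, at the bright end on the right.

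All of these 31 features kept their sign and a limma adjusted p under 0.05 without fish 2. Without it the log2-ER was -4.28 for Ssa#S35557995, -4.24 for Ssa#S35581849, -2.76 for Ssa#S35568346, -2.20 for Ssa#S35547501 and -1.98 for Ssa#S35547500. Among features that rose it was 3.35 for Ssa#S18835747, 2.74 for Ssa#BG935071, 2.39 for Ssa#AM049745, 2.91 for Ssa#S31997300, 2.85 for Ssa#GRASP209154235, 2.04 for Ssa#GRASP209736833 and 1.59 for Ssa#GRASP223648733, each within 1 SE of the value with fish 2. The 6 features named because they met the criteria only with fish 2 are of another kind. Ssa#GRASP209736091 had a signal of 315 in fish 2, against 21.5 to 33.6 in the other S-CCS 1M fish and 10.5 to 51.0 in smolts, and its log2-ER was 1.02 with fish 2 and 0.43 without it. Ssa#DW542830 had 131 in fish 2, against 19.7 to 25.5 in the other S-CCS 1M fish and 10.7 to 28.1 in smolts. Ssa#S48396041 had 173 in fish 2, against 30.5 to 43.6 in the other S-CCS 1M fish and 11.5 to 37.4 in smolts. For these 3, chosen for their dependence on fish 2, much of the difference came from that array, with limma adjusted p of 0.168, 0.176 and 0.0774 even when it was included. Ssa#S48396041 kept a log2-ER of 0.51 without fish 2 (adjusted p = 0.166), and its fish 11, at 43.6, also exceeded every smolt.

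The 3 features that met the criteria as lower only with fish 2 varied widely among fish of both groups. All 3 kept a negative log2-ER without it. Ssa#GRASP221221135 had 215, 1786 and 8668 in S-CCS 1M fish and 524, 20243 and 59452 in smolts, with a log2-ER of -3.08 (SE 1.30, limma adjusted p = 0.187) and of -2.59 without fish 2. Ssa#S35485458 had 8.58, 50.6 and 177 in S-CCS 1M fish and 18.4, 243 and 628 in smolts. Its log2-ER was -1.98 (SE 0.87, adjusted p = 0.211), and -1.66 without fish 2. Omy#S34424356 had a log2-ER of -1.78 (SE 0.70, adjusted p = 0.15), and of -1.39 without fish 2. None of these 3 passed the adjusted p, and the groups overlapped in each. Ssa#GRASP221221135 and Ssa#S35485458 moved together within groups at a correlation of 0.941 over 13 fish. Over all 666 pairs of the 37 named features, 9 correlated within groups at 0.9 or above and 0 at -0.9 or below.

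S-CCS 1M fish differed in how often they left the range of the smolts, as the values below describe for features selected on the same fish. Among the 394 features that rose, fish 12 exceeded all 7 smolts in 93.4%, fish 7 in 90.6%, fish 1 in 85.5%, fish 11 in 74.9%, fish 6 in 71.3% and fish 2 in 70.3%. Among the 249 that fell, the share below all smolts was 86.7% in fish 7, 80.7% in fish 1, 77.9% in fish 11, 77.5% in fish 6, 75.5% in fish 12 and 72.3% in fish 2. By this share fish 2 was the last of the 6 in both directions. By the median log2-ER to the smolt mean it was not, with 0.78 in fish 2 against 0.73 in fish 11 and 0.76 in fish 6 for features that rose, and -0.84 in fish 2 against -0.80 in fish 12 for those that fell. In 247 of the 643 features all 6 fish lay beyond every smolt, and in 181 features 5 of 6 did. The fish left inside the range of smolts in those 181 was fish 2 in 56, fish 6 in 45, fish 11 in 40, fish 1 in 18, fish 12 in 16 and fish 7 in 6.

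Smolts were not uniform either. In 233 of the 643 features past the adjusted p, which these same fish selected, a single smolt lay inside the S-CCS 1M range. This was smolt fish 12 in 115 of them, with 5 to 39 for each of the other smolts. Over the features that rose, smolt fish 12 had a median of 0.28 above the smolt mean, and over those that fell a median of -0.27, the nearest to S-CCS 1M skin in both. Smolt fish 1 lay farthest from the mean of its own group, with a median distance of 0.441 on the log2 scale over features, against 0.178 to 0.26 in the other smolts and 0.188 to 0.302 in S-CCS 1M fish. Without smolt fish 12 the number of features whose groups did not overlap was 611, against 361 (2.55% of those tested) with all fish. It was 383 to 489 without each of the other smolts in turn, and leaving out any fish favours a higher number.

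Net-pen 1M fish showed how far the S-CCS 1M values were shared with the other system at the same time, with the caution that both are set against the same 7 smolts and that the S-CCS 1M fish enter both contrasts. The features that rose in S-CCS 1M had a median log2-ER to smolts of 0.82 for net-pen 1M, of 0.85 for S-CCS 4M and of 0.74 for net-pen 4M. Those that fell had medians of -0.85 for net-pen 1M, of -0.55 for S-CCS 4M and of -0.63 for net-pen 4M. Of the 643 features, 67 (10.4%) differed between S-CCS 1M and net-pen 1M at a limma adjusted p under 0.05, where 6.44% of all features did. Of the 36 among them that rose, 26 lay farther from smolts in S-CCS 1M than in net-pen 1M and 10 nearer, and of the 31 that fell, 24 lay farther and 7 nearer, counts that the choice of features by their distance from smolts in S-CCS 1M favours. Without S-CCS 1M fish 7 the count over all features was 376, against 912 with it, and it was 538, 537 and 548 without fish 11, 12 and 6. Leaving out fish 2 gave 741, and leaving out fish 1 gave 950.

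Among named features, Ssa#S31997300 and Ssa#GRASP223648733 differed between the systems at 1 month. Net-pen 1M arrays were on 3 slides that held no other group, so slide and system cannot be told apart in this contrast. Ssa#S31997300 had a median signal of 90.1 in S-CCS 1M fish and 10.2 in net-pen 1M fish (log2 difference 2.51, limma adjusted p = 0.00625). Its median in net-pen 1M fish was close to the 9.84 of smolts. Net-pen 1M fish ranged from 5.98 to 78.3, however, and the highest lay inside the S-CCS 1M range of 30.3 to 101. Ssa#GRASP223648733 went the other way, with a median of 29121 in S-CCS 1M fish and 57319 in net-pen 1M fish (difference -0.81, adjusted p = 0.00202), although both were above the 10089 of smolts. None of the other named features passed this test.

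Outside the naming rule, further features were chosen after their values were seen, for their distance between the systems among those past both adjusted p, the one against smolts and the one against net-pen 1M. Ssa#GRASP209155851 had a median signal of 1692 in S-CCS 1M fish and 140 in net-pen 1M fish, and 340 in smolts, and was higher by 2.72 on the log2 scale in S-CCS 1M than in net-pen 1M. Ssa#AJ424540 had 1605 in S-CCS 1M fish, 155 in net-pen 1M fish and 134 in smolts, a difference between systems of 2.50. In both, fish 2 and 11 were the lowest S-CCS 1M fish, at 367 and 531 for Ssa#GRASP209155851 and 358 and 473 for Ssa#AJ424540. The highest net-pen 1M signal, 795 for Ssa#GRASP209155851 and 797 for Ssa#AJ424540, was above both of these fish, so the systems overlapped. Smolt fish 1, at 1480 for Ssa#AJ424540, lay inside the S-CCS 1M range of 358 to 1994. Without fish 2 the log2-ER to smolts was 2.15 for Ssa#GRASP209155851 and 2.96 for Ssa#AJ424540, both with a limma adjusted p under 0.05. Ssa#S32007631 was lower in S-CCS 1M than in net-pen 1M (log2 difference -2.15), but its adjusted p against smolts was 0.047 with fish 2 and 0.0751 without it. Omy#S15316366 had a difference between systems of -1.96 and was well above background in 2 of 6 S-CCS 1M fish only, with a log2-ER to smolts of -2.04 and of -2.22 without fish 2. The systems overlapped in it, with signals of 3.25 to 12.6 in S-CCS 1M fish and 6.09 to 64.7 in net-pen 1M fish.

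The level at 1 month was set against that of S-CCS 4M fish, which came from the same system later. Of the 643 features, 125 (19.4%) differed between S-CCS 4M and S-CCS 1M at a limma adjusted p under 0.05, where 16.6% of all features did. Of the 55 among them that rose, 29 lay farther from smolts at 1 month and 26 nearer, and of the 70 that fell, 62 lay farther at 1 month and 8 nearer. Features were chosen by their distance from smolts at 1 month, which favours the farther side, so nothing is read from this split, and S-CCS 4M and S-CCS 1M arrays shared no slide. Over all features the count was 2354, and 2205 without S-CCS 1M fish 2. Ssa#S35557995 was higher in S-CCS 4M than in S-CCS 1M by 2.77 (adjusted p = 0.00315) and Ssa#S35581849 by 2.83 (adjusted p = 0.00299). Their median signals were 2035 and 1917 in S-CCS 4M fish, against 309 and 322 in S-CCS 1M fish. Ssa#S35568346 was higher at 4 months by 1.31 and Ssa#S35547501 by 0.81, all 4 still below the smolts in median. The difference of S-CCS 4M from smolts passed for Ssa#S35568346 (limma adjusted p = 0.000204) and Ssa#S35547501 (3.93e-05). It did not pass for Ssa#S35557995 (0.0762) or Ssa#S35581849 (0.104). Ssa#CB509156 did not move back, with a median signal of 21.9 in S-CCS 4M fish against 27.2 in S-CCS 1M fish (log2 difference -0.59, adjusted p = 0.809).

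Among features that rose, Ssa#GRASP223648733 was higher still in S-CCS 4M, by 0.54 (limma adjusted p = 0.00835), with a median of 42654 against 29121 in S-CCS 1M. Ssa#S31997300 was lower in S-CCS 4M by 1.90 (adjusted p = 0.0122) and Ssa#GRASP209154235 by 0.87 (adjusted p = 0.024). The median signal of Ssa#S31997300 was 18.6 in S-CCS 4M fish and 90.1 in S-CCS 1M fish. The other 14 named features that rose did not pass this test.

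**Figure D5:**
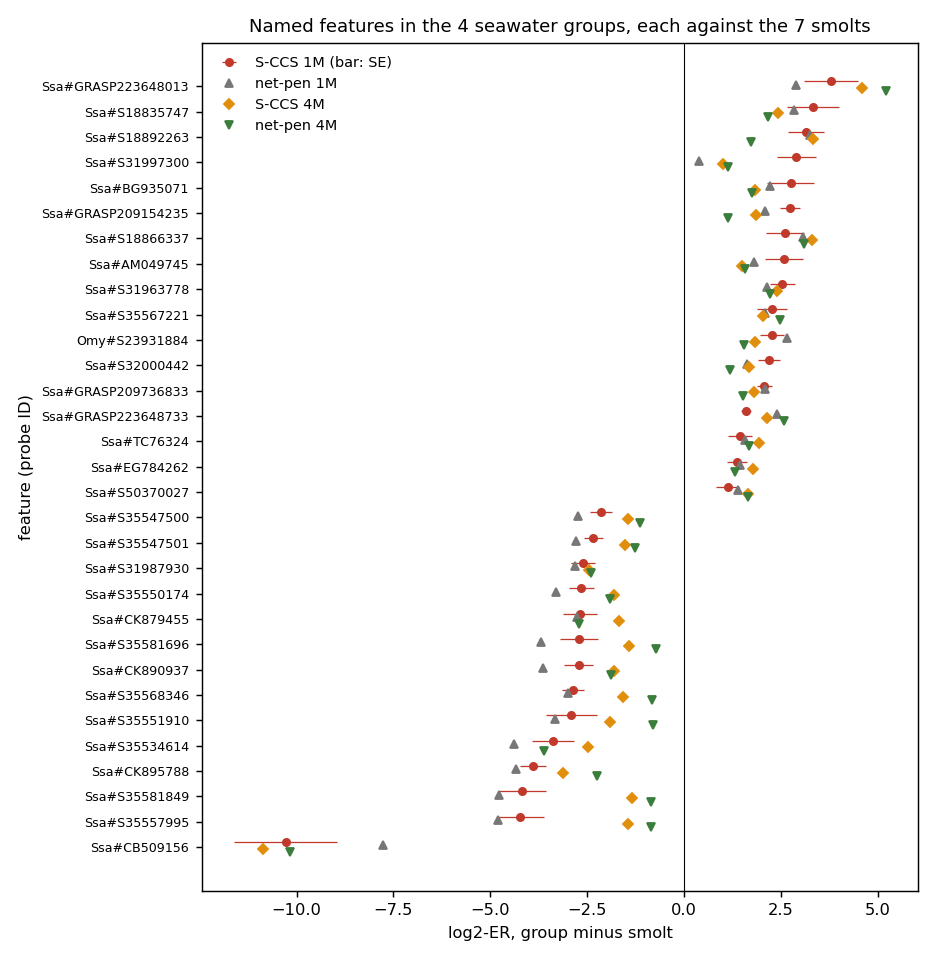
Log2-ER to the 7 smolts of the 31 named features with an adjusted p under 0.05, with red circles (and SE bars) for S-CCS 1M, grey triangles for net-pen 1M, orange diamonds for S-CCS 4M and green inverted triangles for net-pen 4M. All groups share the same smolts, and the grey triangle of Ssa#S31997300 lies at 0.39 while its red circle lies at 2.90.

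Slides of the arrays were mostly apart between the groups. S-CCS 1M fish were on 3 slides and smolts on 4, and only slide 10 held both, S-CCS 1M fish 11 and 12 with smolt fish 3. On that slide, 393 of the 394 features that rose (99.7%) and 245 of the 249 that fell (98.4%) had the same sign, with median differences of 0.86 and -0.71, against 0.86 and -0.94 over the other slides. These fish were among those that selected the features, so the shares describe them and are no test. A limma fit with slide as a fixed block used only arrays on slides shared by different groups, which left out net-pen 1M. With the block, 51 features had an adjusted p under 0.05, against 717 in the same arrays without it. Of the 31 named features, 17 lost an adjusted p under 0.05, among them Ssa#S35557995, Ssa#S35581849 and Ssa#S35534614.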

How the data were processed

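Arrays of 31 fish were read, of which 13 (S-CCS 1M and smolts) are compared here. Groups and fish numbers came from the sample titles, and a number only names a fish within its group. The authors deposited the tables of Agilent Feature Extraction 12.0.1.1, from which the processed signal was used, an intensity after background subtraction. On 7 of 31 arrays the software had also removed a spatial trend by division, and S-CCS 1M fish 2 was the only such array among the 13. The authors further deposited a table of intensity values, which equals the median signal minus local background times a constant per array and served as an alternative.

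Each array held 15377 spots, 536 of them controls. As in the study's methods, the mean intensity of the arrays was equalized, signals were expressed as ratios to the feature's mean in 31 arrays, and lowess (span 0.3) was applied to the log2 ratios. A feature was kept if 50% or more of the arrays in any of the 5 groups had it well above background, which removed 669 features. A further 145 values with a non-uniformity or outlier flag were not used. One model of 5 groups was fitted with limma 3.58.1 in R 4.3.3, tested first on simulated data, and tables were handled in Python 3.11.15 with pandas 2.3.3. The study's methods name criteria for single genes but not the test behind them. Normexp (offset 50) started from the median spot signal, because the tables used here give no mean signal.

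Features were named by rule: the 12 highest and 12 lowest log2-ER among features past the adjusted p that separated all fish and were well above background in all fish of the higher group, the 3 smallest p, the 3 brightest past all criteria, and the 3 per direction that most depended on fish 2. This gave 37 features. Planned lists of skin genes and cell type markers could not be applied without gene names. Members, rules and lists were chosen with earlier results of these data known. Number of arrays limits the precision of all values. Alternatives tried were other scalings, normalizations, filters, background corrections, fits with weights, slide or fish number, a test with unequal variances, and fits without single fish.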

Additional observations from a re-analysis of the deposited data

Results flagged for a closer look

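Single fish stood apart from the rest of their group in 11 of 84 groups of values examined by Dixon's criterion, which flags about 1 in 20 groups by chance. S-CCS 1M fish 2 accounted for 5 of them, of which 3 are on features named for their dependence on this fish, so the count is not to be set against chance. It had the highest share of features well above background (97.11%) and a value of 3.115 in the scanner software's signal to background statistic for negative controls, which was 1.16 to 1.39 in the other S-CCS 1M fish. It also lay at 2.91 above the smolt mean on the log2 scale for Ssa#DW542830, 3.986 for Ssa#GRASP209736091 and 2.812 for Ssa#S48396041, 3 dim features that met the criteria only with this array.

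The others were spread over several fish. S-CCS 1M fish 1 lay at -5.347 from the smolt mean for Ssa#S35551910, fish 6 at 1.165 for Ssa#GRASP223648013 and fish 11 at 1.595 for Ssa#S31997300. Smolt fish 12 lay at 1.111 above the mean of its group for Ssa#AM049745 and at 1.383 for Ssa#BG935071. Smolt fish 1 had a median distance of 0.4414 from the other smolts over all features.

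Differences from the other seawater groups were past a limma adjusted p of 0.05 for some named features. Against net-pen 1M fish, S-CCS 1M fish differed by 2.511 on the log2 scale for Ssa#S31997300 and by -0.8062 for Ssa#GRASP223648733. S-CCS 4M fish differed from S-CCS 1M fish by -1.897 for Ssa#S31997300, -0.8699 for Ssa#GRASP209154235 and 0.5369 for Ssa#GRASP223648733. Among features that had fallen, the difference S-CCS 4M minus S-CCS 1M was 2.774 for Ssa#S35557995, 2.825 for Ssa#S35581849, 1.308 for Ssa#S35568346 and 0.8064 for Ssa#S35547501.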

How the results depend on the processing

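No named feature changed sign in any of the 1251 values computed under the alternatives. Most were chosen for full separation of the groups or a small p in these same data, so a change of sign was unlikely from the start. Of 1049 values for named features past the adjusted p, 44 lost it, 17 of them with slide as a fixed block, 8 with normexp, 9 with normexp and fish 2 left out, 6 with the test of unequal variances, and the other 4 for Ssa#S50370027. The causes were not tested. The count of features that met both criteria (724) was 202 with normexp and 190 with normexp and fish 2 left out. The count with a limma adjusted p under 0.05 (643) was 282 with normexp, 256 with normexp and fish 2 left out, and 1527 with array weights. It was 355 with the test of unequal variances and 51 with slide as a fixed block, which uses only arrays on slides shared by different groups. Slide as a random block gave 751, with a consensus correlation of -0.036. Groups did not overlap in 191 features with normexp instead of 361, in 581 with the 75th percentile and fish 2 left out, and in 551 when lowess was dropped as well. Against net-pen 1M the adjusted count (912) was 1591 without lowess, 1673 with the deposited table, 1735 with detrending undone and 1712 with array weights. Between S-CCS 4M and S-CCS 1M (2354) it was 3810 with array weights and 178 with the slide block, against 2210 in the same arrays without it. Those arrays leave out S-CCS 4M fish 1 and 2.

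Without single fish, features meeting both criteria ranged over 639 to 863, those past the adjusted p over 452 to 773, those without overlap over 383 to 611, those between S-CCS 1M and net-pen 1M over 376 to 1177 and those between S-CCS 4M and S-CCS 1M over 1600 to 2619. With the fish number as a replicate block, 829 features met the criteria and 561 passed the adjusted p. The numbers do not pair the fish: same-numbered fish correlated at -0.42 to 0.28 in 6 pairs, 2 of them above 0.1, and 1 correlated best with its own number. Settings that combine normexp, scaling or lowess with fish 2 left out, the 75th percentile without lowess, and the arrays on shared slides without the block were added after seeing the data. Dim signal limited the fold of the features not well above background in smolts.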
